A study of Mus musculus with 16 samples.

Results

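The interferon regulatory factors (IRFs) are a family of transcription factors, and 8 of their genes were followed here by symbol: Irf1, Irf2, Irf3, Irf4, Irf5, Irf7, Irf8 and Irf9. They are 8 of the 43430 genes in the count table, chosen by name. Of the 8, 7 passed the filter on low counts and were among the 11004 genes tested, and Irf4 did not pass. RNA sequencing was done on bone marrow-derived macrophages, phagocytes grown from the marrow of C57BL/6J mice with macrophage colony-stimulating factor and then plated in MEM. The groups were MEM without serine plus lipopolysaccharide (LPS), MEM with serine plus LPS, MEM without serine and no LPS, and complete MEM and no LPS, with 4 libraries in each. LPS, the Gram-negative bacterial product sensed by Toll-like receptor 4, was given at 100 ng/mL, and RNA was isolated 4 h later. All 16 libraries share the strain, the growth factor and the base medium. The labels do not say how long serine was withheld, what age or sex the mice were, or whether replicates 1 to 4 are separate animals. By its sex-linked genes, given below, replicate 1 came from another animal than the rest. The p-values describe how far these libraries vary, which among replicates 2 to 4 may be technical.

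IRFs share a DNA-binding domain that reads GAAA repeats in the interferon-stimulated response element. In macrophages, LPS signals through the adaptors TRIF and MyD88 to kinases that phosphorylate IRF3, IRF5 and IRF7, which then turn on interferon beta and inflammatory cytokines. Secreted interferon acts back on the cells through a complex that holds IRF9 and so raises many further genes, IRF7 and IRF1 among them, while IRF2 competes for the same DNA sites and IRF4 and IRF8 bind composite sites with PU.1.

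The start regions of 4 members are shown because those of Irf1, Irf2 and Irf8 hold motifs known to be bound downstream of interferon, NF-kB or amino acid stress, while that of Irf7 holds none. Each is the 250 bases upstream of a RefSeq start site (GRCm38.p6, the build called mm10), written 5′ to 3′ on the gene's own strand, with matched motifs in capitals. Irf1 is chr11:53769764-53770013 (plus strand), Irf2 is chr8:46739495-46739744 (plus), Irf7 is chr7:141266425-141266674 (minus) and Irf8 is chr8:120736108-120736357 (plus).
Irf1: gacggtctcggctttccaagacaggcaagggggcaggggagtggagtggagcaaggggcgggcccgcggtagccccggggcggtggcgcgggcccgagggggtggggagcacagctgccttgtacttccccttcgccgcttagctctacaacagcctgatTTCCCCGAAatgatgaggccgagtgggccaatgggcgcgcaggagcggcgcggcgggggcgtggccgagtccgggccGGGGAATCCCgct
Irf2: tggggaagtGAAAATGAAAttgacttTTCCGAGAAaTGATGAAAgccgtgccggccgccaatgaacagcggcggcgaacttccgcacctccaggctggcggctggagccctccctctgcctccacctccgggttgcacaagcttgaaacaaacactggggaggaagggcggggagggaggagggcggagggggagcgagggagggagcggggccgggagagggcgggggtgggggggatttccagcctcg
Irf7: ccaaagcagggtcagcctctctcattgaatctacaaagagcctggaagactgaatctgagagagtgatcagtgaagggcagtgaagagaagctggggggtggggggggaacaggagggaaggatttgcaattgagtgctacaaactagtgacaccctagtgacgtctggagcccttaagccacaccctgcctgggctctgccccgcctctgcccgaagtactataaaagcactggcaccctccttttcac
Irf8: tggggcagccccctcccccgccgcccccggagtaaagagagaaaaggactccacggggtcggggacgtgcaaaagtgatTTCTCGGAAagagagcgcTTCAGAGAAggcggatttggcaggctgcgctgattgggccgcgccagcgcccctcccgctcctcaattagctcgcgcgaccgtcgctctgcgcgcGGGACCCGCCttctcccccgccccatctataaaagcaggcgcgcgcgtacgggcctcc

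The motifs were searched on both strands as bare letters. They were the core of the interferon-stimulated response element (GAAA repeated after any 2 bases), the gamma-activated site TTCNNNGAA, its longer form (TTC and GAA with any 4 bases between them), the kappa B site (GGGA, any 4 bases, CC) and the amino acid response element TGATGNAA. Positions count back from the base before the start site, which is -1, and no matches overlap. Irf1 held a gamma-activated site, TTCCCCGAA, at -90, and a kappa B match on the other strand, GGGGAATCCC as printed, at -13. Irf2 held 3 motifs near the far end of its window, namely the response element core GAAAATGAAA at -241, the gamma-activated site TTCCGAGAA at -224 and the amino acid response element TGATGAAA at -214. Irf8 held a pair of gamma-activated sites, TTCTCGGAA at -171 and TTCAGAGAA at -153, and a kappa B match, GGGACCCGCC, at -58. The kappa B letters also occurred in the Irf4 window, and no motif occurred in the windows of Irf3, Irf5, Irf7 or Irf9. Irf1, Irf8 and Irf9 each have another RefSeq start site, whose windows were searched as well and held no match. Over all 32851 RefSeq promoter windows of the same length the core occurred in 2.98%, the gamma-activated site in 7.02%, its longer form in 5.85%, the kappa B letters in 17.6% and the amino acid response element in 3.45%. A match is a description of letters and shows no binding.

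Total counts ran from 2871477 to 10043362 per library, the lowest in replicate 4 of the untreated cells without serine, which also had the fewest genes detected (12900, against 14000 to 16031 in the other 15 libraries). All 8 macrophage markers were detected, and their summed level was 22941 ± 2704 CPM in LPS cells without serine, 24616 ± 3043 CPM in LPS cells with serine, 20008 ± 4831 CPM in untreated cells without serine and 19525 ± 2206 CPM in untreated cells with serine (SD, n = 4 each). CPM is the usual depth-normalised count, here with library sizes scaled by edgeR's TMM factors. This factor was 1.03 in replicate 4 of the untreated cells without serine, against 1.24 to 1.27 in the other untreated libraries. The macrophage marker sum of that library was 27037 CPM, against 16243 to 22321 CPM in the other untreated libraries. The cause was not tested. Xist had 0 counts in replicate 1 of every group and 351 to 1477 in the other 12 libraries. Y-linked genes summed to 1184 to 2391 counts in replicate 1 and to 0 or 1 elsewhere. Replicate 1 differs from the rest in sex, and its sex and its number cannot be told apart.

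LPS raised 5 of the 7 tested IRF genes in medium without serine and the same 5 in medium with serine, namely Irf1, Irf2, Irf5, Irf7 and Irf9. None of the 7 was called lower, and Irf3 and Irf8 were not called in either medium. With total-count scaling, Irf3 was called lower in both media and Irf8 with serine. Across all 11004 genes, 56.8% were called without serine (27.1% higher, 29.7% lower) and 55.8% with serine (27.6% higher, 28.2% lower) at an adjusted p of 0.05 in edgeR's quasi-likelihood test. With the replicate number as a block the same 5 members were called in each medium, beside 61.1% of all genes without serine and 60.4% with serine. The median log2 fold change of the 7 members was 1.60 without serine and 1.48 with serine, against -0.12 and -0.03 over all tested genes. CPM ranges of LPS and untreated libraries did not overlap for 5 of the 7 tested members in each medium (47.7% of all tested genes without serine, 61.6% with serine). Irf4, which was not tested, was also separate without serine, at 0.560 CPM or more with LPS against at most 0.395 CPM. Total-count scaling put the median of all genes at -0.69 without serine and -0.64 with serine, with 75% and 73.3% of all genes called. In bulk RNA a change in the number of cells of a type and a change of RNA per cell cannot be told apart.

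**Figure D1:**
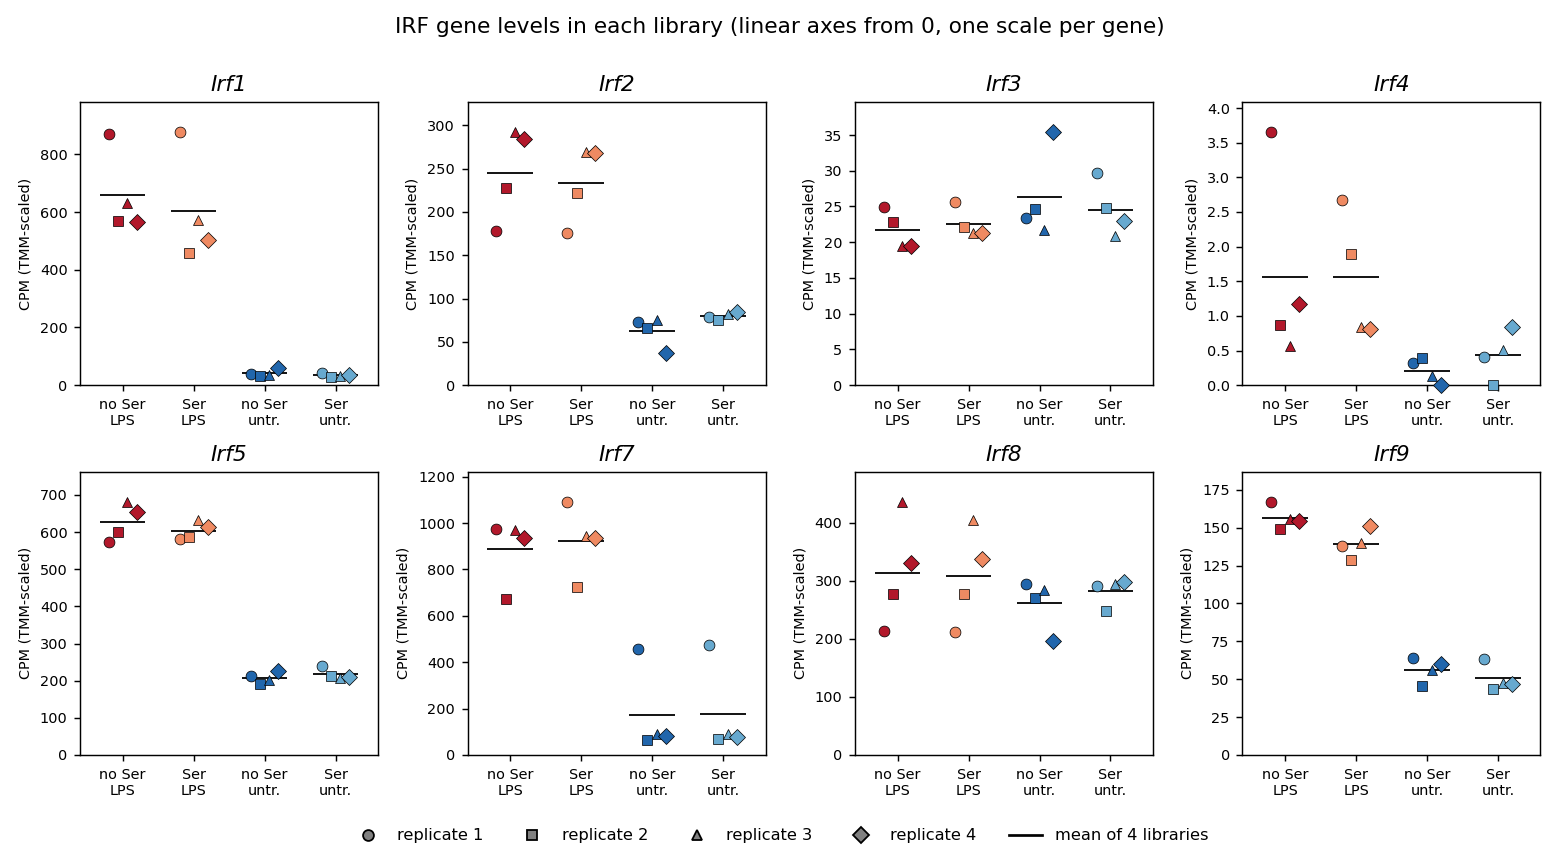
Level of each IRF gene in TMM-scaled CPM (linear axis from 0) in each of the 16 libraries, by group (no Ser, without serine; untr., no LPS), with the replicate number as the symbol and the mean of 4 libraries as a bar. Irf1, Irf2, Irf5, Irf7 and Irf9 are higher in both LPS groups than in both untreated groups, and replicate 1 of Irf7 stands apart in untreated cells.

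Irf1 and Irf2 bind the same response elements, IRF1 as an activator and IRF2 mostly as a repressor. Irf1 (ENSMUSG00000018899, chromosome 11, 53770014 to 53778374, plus strand, mm10) had the largest fold change of the 7 tested members in both media. In LPS cells without serine it had 871, 568, 631 and 566 CPM in replicates 1 to 4, against 39.9, 31.2, 33.7 and 58.3 CPM in untreated cells without serine. In LPS cells with serine it had 876, 459, 573 and 504 CPM, against 41.9, 26.6, 33.3 and 35.0 CPM in untreated cells with serine. The lowest LPS library was thus several times above the highest untreated library, and replicate 1 was the highest of each LPS group. The log2 fold change was 4.03 ± 0.26 without serine (SE; adjusted p = 1.23e-09, edgeR quasi-likelihood) and 4.14 ± 0.26 with serine (adjusted p = 8.4e-10), or 16.4-fold and 17.6-fold. The printed start region of Irf1 holds a gamma-activated site and a kappa B match, and so does that of Irf8, which was not called with LPS. The window of the other start site of each gene holds neither.

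Irf2 (ENSMUSG00000031627, chromosome 8, 46739745 to 46847458, plus strand) had 178, 227, 292 and 284 CPM in LPS cells without serine, against 72.7, 66.5, 75.7 and 37.4 CPM in untreated cells without serine. With serine it had 176, 222, 269 and 267 CPM in LPS cells, against 78.4, 75.5, 82.5 and 84.1 CPM in untreated cells. Every LPS library lay above every untreated library, and replicate 1 was the lowest of each LPS group. The fitted change was 1.95 ± 0.21 without serine (adjusted p = 6.27e-07) and 1.54 ± 0.21 with serine (adjusted p = 7.22e-06). The library of 37.4 CPM is replicate 4 of the untreated cells without serine, the shallowest of the series. That library also had the lowest TMM factor of the untreated libraries. The activator and the competitor therefore rose together, by unequal amounts.

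Irf3, Irf5 and Irf7 encode the factors that are activated by phosphorylation. Irf3 (ENSMUSG00000003184, chromosome 7, 44997648 to 45002848, plus strand), the latent factor that TBK1 phosphorylates first after TRIF signalling, had overlapping mRNA levels in all groups. It had 24.9, 22.9, 19.4 and 19.5 CPM in LPS cells without serine, against 23.4, 24.7, 21.8 and 35.4 CPM in untreated cells without serine. With serine it had 25.6, 22.1, 21.3 and 21.3 CPM in LPS cells, against 29.7, 24.8, 20.8 and 22.9 CPM in untreated cells. The groups overlapped, and the highest value again came from replicate 4 of the untreated cells without serine. Its log2 fold change was -0.26 ± 0.16 without serine (95% interval -0.60 to 0.08, adjusted p = 0.182) and -0.12 ± 0.16 with serine (-0.46 to 0.21, adjusted p = 0.544). With total-count scaling it was called lower, at -0.81 and -0.74 (adjusted p = 0.000194 and 0.000403 in edgeR), close to the shift of the median of all genes on that scale.

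Irf5 (ENSMUSG00000029771, chromosome 6, 29526625 to 29541869, plus strand), which works downstream of MyD88 and drives inflammatory cytokine genes, rose with the smallest standard error of the 7. In LPS cells without serine it had 574, 600.1, 681 and 654 CPM, against 211, 190.0, 201 and 226 CPM in untreated cells without serine. In LPS cells with serine it had 581, 587, 634 and 613 CPM, against 239, 213, 207 and 209 CPM in untreated cells with serine. Replicates of a group lay close together and the LPS and untreated ranges were far apart. The change was 1.60 ± 0.10 without serine (adjusted p = 9.32e-10) and 1.48 ± 0.10 with serine (adjusted p = 2.17e-09), about 3.03-fold and 2.78-fold. Exons of Tnpo3 on the opposite strand cover 14.1% of the exonic bases of Irf5, and with a kit that keeps no strand, reads of both genes there cannot be told apart.

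Irf7 (ENSMUSG00000025498, chromosome 7, 141262706 to 141266481, minus strand), the factor that amplifies type I interferon and is itself an interferon-stimulated gene, rose in every replicate pair but by very different amounts. It had 976, 670.4, 969 and 936 CPM in LPS cells without serine, against 456, 65.5, 91.0 and 83.2 CPM in untreated cells without serine. With serine it had 1090.3, 724, 943 and 934 CPM in LPS cells, against 475, 67.2, 91.0 and 79.2 CPM in untreated cells. The untreated libraries of replicate 1 were 5.70 and 6.00 times the mean of the other 3 without and with serine, while the LPS libraries of replicate 1 were 1.14 and 1.26 times theirs. The fitted change was 2.34 ± 0.65 without serine (adjusted p = 0.00564) and 2.37 ± 0.65 with serine (adjusted p = 0.00521). Without replicate 1 of all groups, a choice made after seeing the data, it was 3.40 ± 0.21 (adjusted p = 5.57e-08) and 3.42 ± 0.20 (adjusted p = 4.84e-08). With the replicate number as a block it was 2.88 ± 0.42 (adjusted p = 5.6e-05) and 2.91 ± 0.42 (adjusted p = 4.75e-05).

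Irf7 is also high in plasmacytoid dendritic cells, whose 5 markers summed to 508 to 680.4 CPM and 484 to 655 CPM in LPS cells without and with serine, against 186 to 479 CPM and 201 to 374 CPM in the untreated groups. Nearly all of that sum came from Bst2 and Tcf4, and the defining marker Siglech averaged 0.862 and 0.753 CPM in LPS cells without and with serine, against 0.519 and 0.556 CPM in untreated cells. The part of these cells in the Irf7 values was not tested.

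**Figure D2:**
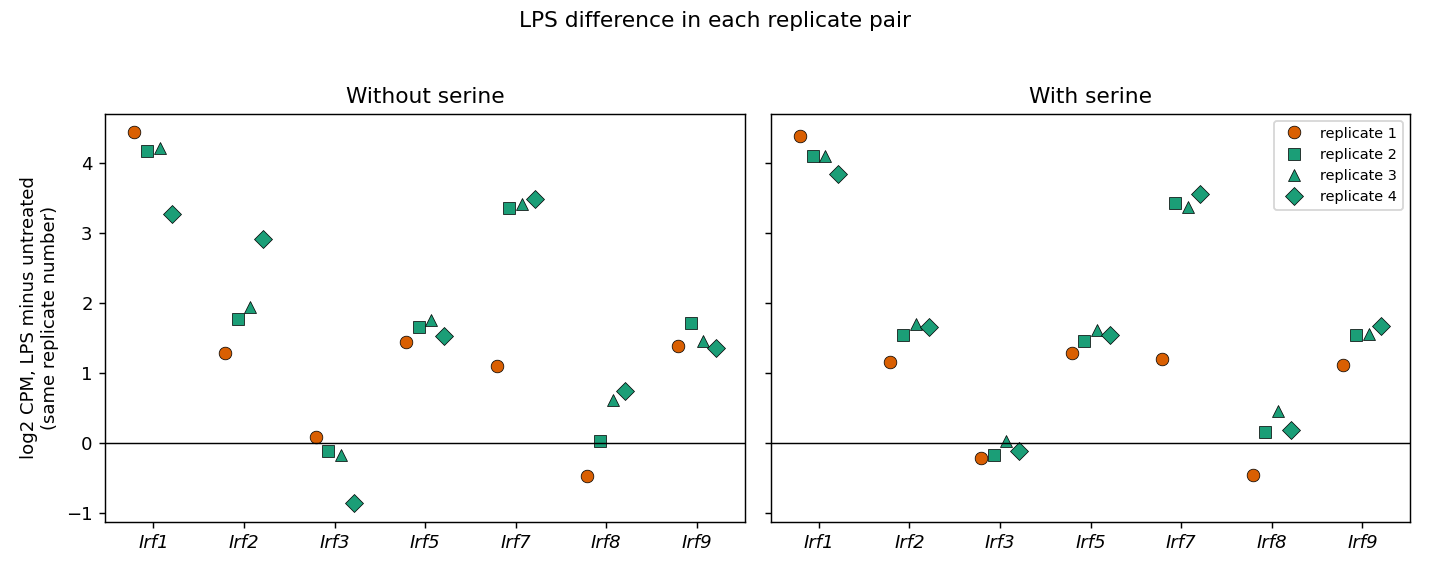
Difference in log2 CPM, LPS minus untreated library of the same replicate number, for the 7 tested IRF genes without serine (left) and with serine (right). Irf7 differs by 1.10 and 1.20 in replicate 1 and by 3.35 to 3.55 in replicates 2 to 4, and Irf8 is below 0 in replicate 1 and above 0 in the others.

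Irf9 (ENSMUSG00000002325, chromosome 14, 55603571 to 55610030, plus strand) encodes the DNA-binding subunit of the complex that acts after type I interferon. It had 167, 149, 156 and 155 CPM in LPS cells without serine, against 63.8, 45.2, 56.2 and 59.9 CPM in untreated cells without serine. With serine it had 138, 129, 139.7 and 151 CPM in LPS cells, against 63.5, 43.8, 47.4 and 47.1 CPM in untreated cells. The LPS and untreated ranges were separate in both media. The change was 1.48 ± 0.13 without serine (adjusted p = 6.61e-08) and 1.47 ± 0.13 with serine (adjusted p = 6.52e-08). Irf9 shares 2.28% of its exonic bases with Rnf31 on the same strand.

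Irf4 and Irf8 encode factors that work with PU.1 in myeloid and lymphoid cells. Irf8 (ENSMUSG00000041515, chromosome 8, 120736358 to 120756694, plus strand), needed for monocyte development in mice, was well expressed in every group. It had 214, 277, 435 and 330.4 CPM in LPS cells without serine, against 294, 270.5, 283 and 197 CPM in untreated cells without serine. With serine it had 212, 276, 405 and 338 CPM in LPS cells, against 290.2, 247, 294 and 297 CPM in untreated cells. The LPS libraries spread on both sides of the untreated libraries, with replicate 1 lowest and replicate 3 highest in each LPS group. The change was 0.26 ± 0.21 without serine (95% interval -0.19 to 0.71, adjusted p = 0.300) and 0.13 ± 0.21 with serine (-0.32 to 0.58, adjusted p = 0.647), and total-count scaling turned it to -0.33 (adjusted p = 0.181) and -0.50 (adjusted p = 0.0494). Between LPS and untreated libraries of the same number it differed by -0.46 and -0.45 in replicate 1, against 0.04 to 0.75 and 0.16 to 0.46 in replicates 2 to 4.

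Irf4 (ENSMUSG00000021356, chromosome 13, 30749226 to 30766927, plus strand), which in mouse macrophages competes with IRF5 for MyD88 and supports alternative activation, was close to undetected. It had 24, 5, 3 and 6 counts in LPS cells without serine, against 4, 4, 1 and 0 counts in untreated cells without serine. With serine it had 18, 11, 5 and 4 counts in LPS cells, against 4, 0, 4 and 6 counts in untreated cells. Summed over a group this was 38 counts in each LPS group, against 9 counts (95% Poisson interval 4.12 to 17.1) without serine and 14 counts (7.65 to 23.5) with serine in the untreated groups, intervals that cover counting error only. In CPM it averaged 1.56 ± 1.41 and 1.56 ± 0.901 in LPS cells without and with serine, against 0.210 ± 0.180 and 0.435 ± 0.343 in untreated cells, and replicate 1 had the highest count in each LPS group. Tested without the filter on low counts it was higher with LPS in both media, at 2.62 ± 0.73 without serine (adjusted p = 0.00664 over 21180 genes, 28.1% of them called) and 1.99 ± 0.67 with serine (adjusted p = 0.0260, 28.5% called). These calls rest on single libraries. Without serine the change was 1.71 without replicate 1 of the LPS cells (adjusted p = 0.115). With serine it was 1.57 and 1.89 without replicate 1 or 2 of the LPS cells (adjusted p = 0.136 and 0.0631), and 1.97 and 1.55 without replicate 1 or 2 of the untreated cells (adjusted p = 0.0605 and 0.0787). Without replicate 1 of all groups neither call was made, at 1.86 and 1.55 without and with serine (adjusted p = 0.137 and 0.143).

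Dendritic cells and B cells express Irf4 and Irf8 strongly. The 7 dendritic cell markers summed to 13.0 to 18.7 CPM and 18.3 to 23.2 CPM in LPS cells without and with serine, against 5.05 to 5.93 CPM and 2.64 to 6.46 CPM in untreated cells, with Cd209a at 0 in 3 of the 4 groups. The 5 B and plasma cell markers summed to at most 1.21 CPM in any library, with Pax5 at 0 throughout. Only 2 of the 7 dendritic cell markers passed the filter on low counts. The dendritic cell sum and the summed Irf4 counts of a group were both higher in LPS cells. Without serine the LPS sums were 17.5, 18.7, 16.8 and 13.0 CPM in replicates 1 to 4, where Irf4 had 24, 5, 3 and 6 counts. With serine they were 22.4, 19.0, 23.2 and 18.3 CPM, where Irf4 had 18, 11, 5 and 4 counts. A sum of 5 stromal markers was also higher with LPS, at means of 26.0 and 35.1 CPM without and with serine, against 10.6 and 11.1 CPM in untreated cells. The part of either cell type in the Irf4 counts was not tested.

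**Figure D3:**
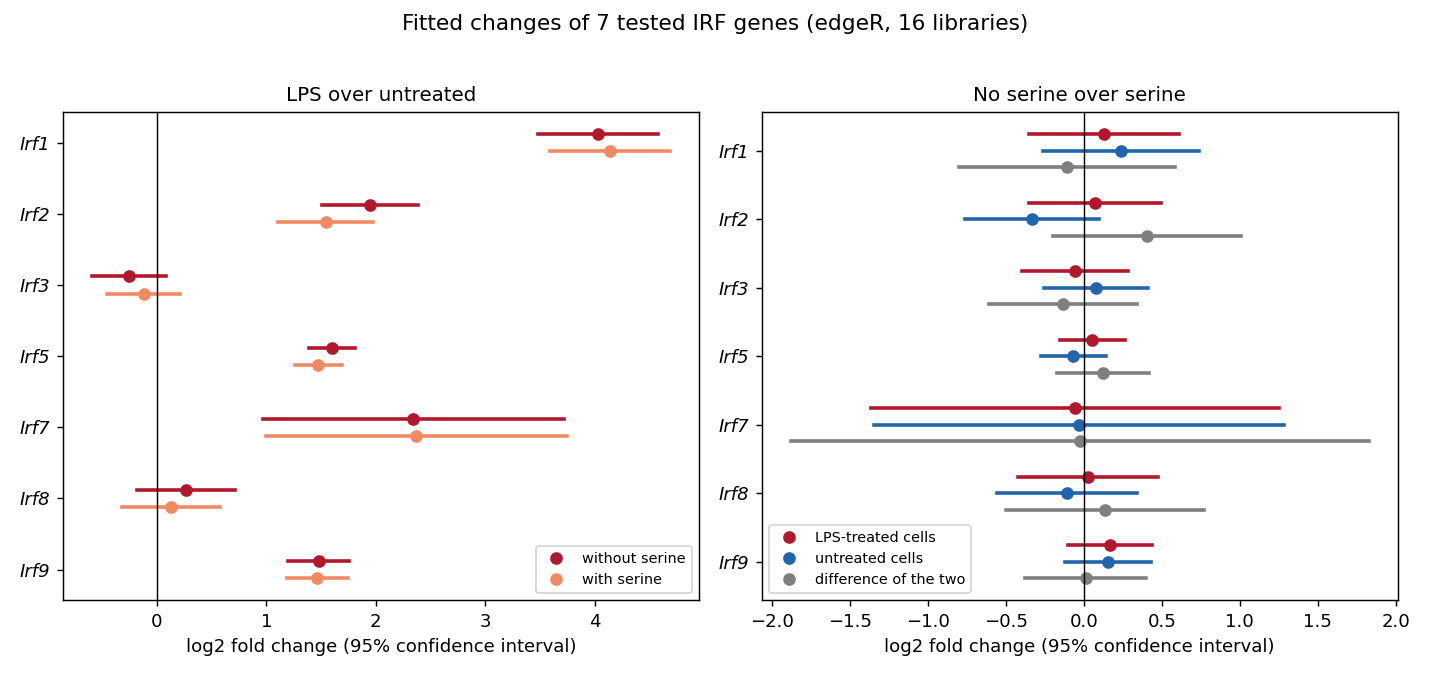
Fitted log2 fold changes with 95% confidence intervals (edgeR quasi-likelihood, 16 libraries) of the 7 tested IRF genes, for LPS over untreated (left) and for no serine over serine in LPS-treated and untreated cells and for the LPS response without minus with serine (right). The LPS changes of 5 genes lie clear of 0 in both media, while all intervals for serine withdrawal include 0.

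No IRF gene passed the test for serine withdrawal. In LPS-treated cells 0 of 7 members were called by edgeR and 0 of 7 had an unadjusted p under 0.05, and DESeq2 called 0 (by edgeR, 0.0545% of all genes were called and 6.14% had an unadjusted p under 0.05). In untreated cells the counts were 0, 0 and 0 as well (0% of all genes called, 4.98% at an unadjusted p under 0.05). The replicate block called 0 of 7 members in both as well (0.891% and 0.0818% of all genes in LPS-treated and untreated cells). No CPM range of a member was separate between media, against 7.57% of all genes in LPS-treated cells and 2.77% in untreated cells. In LPS-treated cells Irf5 changed by 0.06 ± 0.10 (95% interval -0.15 to 0.26), Irf2 by 0.07 ± 0.20 (-0.35 to 0.50) and Irf1 by 0.13 ± 0.23 (-0.35 to 0.61), each with an adjusted p of 1.0. Irf7 was the least certain, at -0.06 ± 0.62 (-1.36 to 1.25) in the model without a block, although its replicate pairs differed by only -0.16 to 0.04.

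Irf9 was higher without serine in 4 of 4 LPS pairs and 4 of 4 untreated pairs. The change was 0.17 ± 0.13 in LPS-treated cells (95% interval -0.10 to 0.44, adjusted p = 1.0) and 0.16 ± 0.13 in untreated cells (-0.12 to 0.43, adjusted p = 0.832), and the replicate block gave adjusted p = 0.733 and 0.662. Irf2 was lower without serine in 4 of 4 untreated pairs, at -0.33 ± 0.20 (-0.76 to 0.10, adjusted p = 0.816), with pair differences of -0.11, -0.18, -0.12 and -1.16 in replicates 1 to 4, and at -0.16 without replicate 4 of the cells without serine. In LPS-treated cells the pair differences of Irf2 were 0.01, 0.04, 0.12 and 0.09. The share of all tested genes with the same sign in all 4 pairs was not counted. The difference of the LPS responses, without minus with serine, was 0.40 ± 0.29 for Irf2 (-0.20 to 1.01, adjusted p = 0.95) and -0.13 to 0.14 for the other 6 tested members. None of the 7 passed in that comparison (0% of all genes called, 2.3% at an unadjusted p under 0.05, 0 members by DESeq2).

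Levels of different genes were compared as FPKM, that is CPM divided by the length in kilobases of the exon union of GENCODE M21. In LPS cells without serine the order was Irf7 at 235 ± 38.7, Irf5 at 216 ± 16.8, Irf1 at 166 ± 36.3, Irf8 at 44.5 ± 13.3, Irf2 at 33.2 ± 7.22, Irf9 at 29.1 ± 1.37, Irf3 at 6.29 ± 0.787 and Irf4 at 0.318 ± 0.288 FPKM (SD, n = 4). LPS cells with serine had the same order. Irf7, Irf5 and Irf1 overlapped their neighbours in that order, as did Irf8, Irf2 and Irf9, while Irf1 and Irf8, Irf9 and Irf3, and Irf3 and Irf4 had separate ranges in both LPS groups. In untreated cells without serine Irf5 was first at 71.3 ± 5.35 FPKM, then Irf7 at 46.0 ± 49.8 and Irf8 at 37.0 ± 6.25, and Irf9, Irf1, Irf2 and Irf3 lay between 7.64 and 10.5 on average with overlapping neighbours. With serine they stood at 74.7 ± 5.03, 47.2 ± 52.5 and 40.0 ± 3.31 FPKM for Irf5, Irf7 and Irf8. The Irf7 means in untreated cells rest on replicate 1, at 121 and 126 FPKM without and with serine, while replicates 2 to 4 averaged 21.2 ± 3.46 and 20.96 ± 3.16 FPKM (SD, n = 3). Irf8 lay above Irf7 in 3 of 4 untreated libraries in each medium. The exon union of Irf7, 3776 bases, equals its genomic span, so it takes in introns and lowers the FPKM of Irf7. Summed over the 8 genes the level was 730.2 ± 69.0 and 712 ± 78.6 FPKM in LPS cells without and with serine, against 191 ± 55.4 and 198 ± 62.2 FPKM in untreated cells. Irf1 made up 22.7 ± 4.12% and 21.03 ± 4.46% of that sum in LPS cells without and with serine, against 5.62 ± 2.14% and 4.47 ± 0.687% in untreated cells, and Irf8 6.10 ± 1.62% and 6.20 ± 1.71%, against 20.1 ± 4.97% and 21.3 ± 4.89%. The order depends on the length used: with the deposited lengths, which exceed the genomic span of 4 members, Irf5 came first and Irf2 second in both LPS groups.

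**Figure D4:**
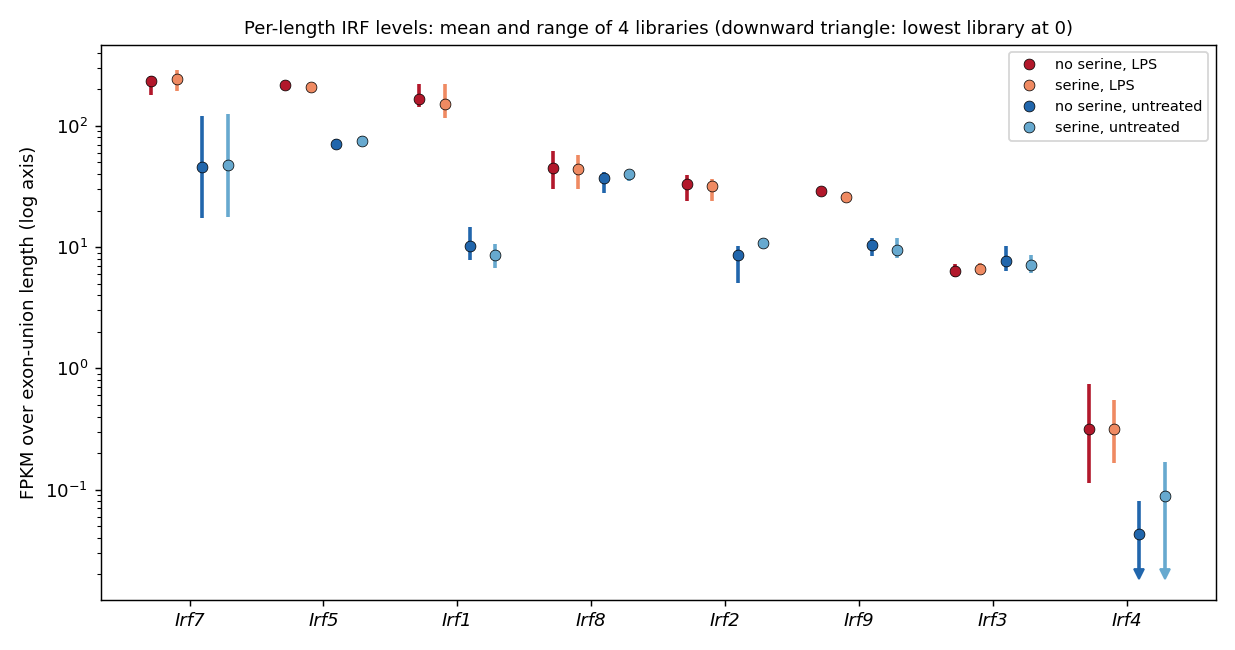
FPKM (CPM per kilobase of exon union, log axis) of the 8 IRF genes, with the mean of 4 libraries as a point and the lowest to highest library as a line, by group. Irf7, Irf5 and Irf1 lead in LPS cells, Irf5 leads in untreated cells, and Irf4 is the lowest in every group.

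In untreated cells replicate 1 stood apart in Irf7 together with part of the interferon-stimulated list. Of the 10 genes on the interferon-stimulated list, replicate 1 was above the other 3 libraries for 5 in untreated cells without serine and for 9 in untreated cells with serine, against 29.8% and 36.5% of all tested genes. In LPS cells without and with serine it was above the others for 1 and 3 of the 10, against 32.5% and 32.2% of all tested genes, and below them for 5 and 4, against 31.5% and 31.4%. Mx1, an antiviral GTPase, had the largest ratio of the list in both untreated groups. It had 17.8 CPM in replicate 1 against 1.68 to 5.25 CPM in the other untreated libraries without serine, and 18.4 against 2.45 to 3.75 CPM with serine. Ifit1, Isg15, Cxcl10 and Rsad2 of replicate 1 lay within the range of the other untreated libraries without serine. A level of replicate 1 at least 5 times the mean of the others was found in 0.527% and 0.436% of all genes in untreated cells without and with serine, and Irf7 was among them in both. The 5 neutrophil markers summed to 159 CPM in replicate 1 of untreated cells without serine, against 53.7 to 81.9 CPM in the others. With serine the sum was 132 CPM against 50.4 to 76.8 CPM. In LPS cells replicate 1 was highest too, with 161 against 85.2 to 141 CPM without serine. With serine it had 147 against 80.0 to 122 CPM. Ly6g had 0 counts in every group but untreated cells with serine. The part of sex, of the animal, of cell content and of handling in these replicate 1 levels was not tested.

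**Figure D5:**
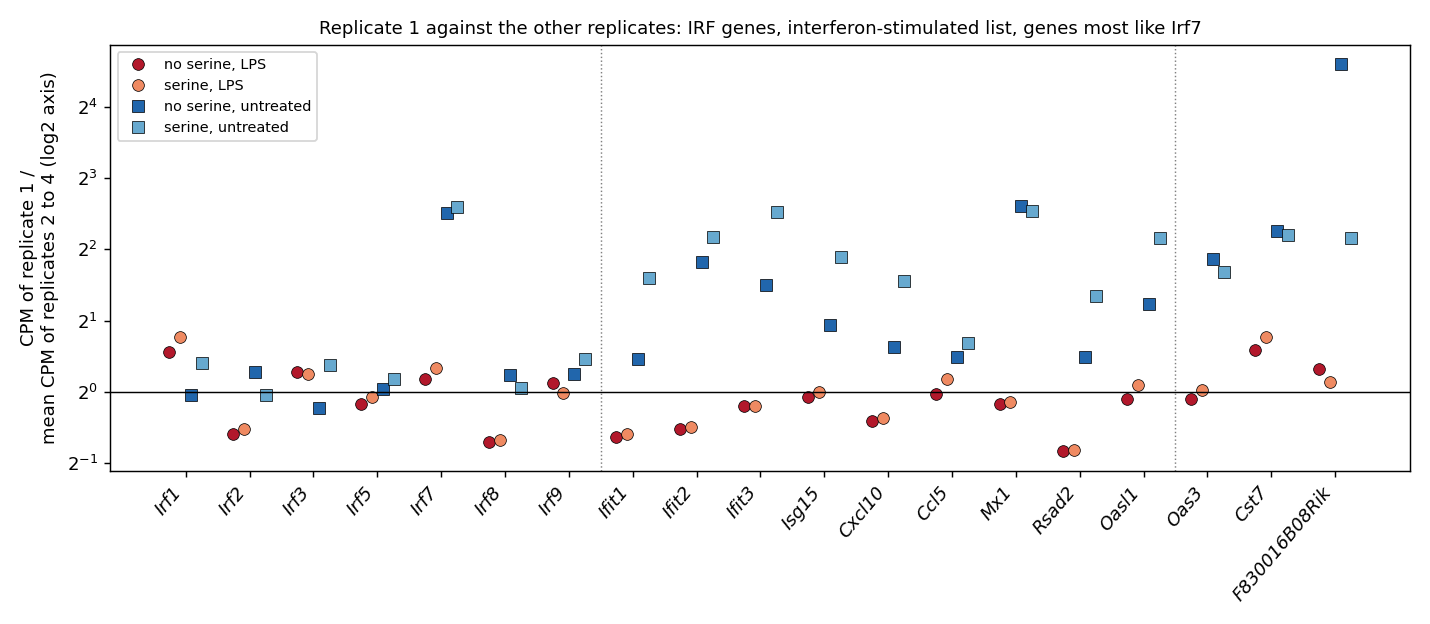
CPM of replicate 1 divided by the mean CPM of replicates 2 to 4 in the same group (log2 axis, 1 means equal), for the 7 tested IRF genes, 9 interferon-stimulated genes and the 3 genes most like Irf7. These 3 were chosen by likeness over the same 16 libraries, so their ratios are not independent of Irf7. Irf7 stands at 5.70 and 6.00 in untreated cells without and with serine, near Mx1 at 6.07 and 5.82, while the LPS values of both lie near 1.

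Genes with the most similar profile were found as the smallest root mean square difference between centred log2 CPM over the 16 libraries, a description with no test. For Irf7 they were Oas3, an interferon-stimulated antiviral enzyme, at 0.38, Cst7 at 0.42 and F830016B08Rik at 0.45 log2 units. For Irf9 they were Cd47 at 0.08, Tbk1, the kinase of IRF3, at 0.11 and Arid4a at 0.14. For Irf1 they were Arhgef3 at 0.23, Zup1 at 0.24 and Sod2, the mitochondrial superoxide dismutase, at 0.25. Irf5 was closest to Urgcp, Cept1 and Armc8 (each 0.11), and Irf2 to Frmd4a (0.11), Itpkb (0.12) and Cd2ap (0.13). Irf3 was closest to Mea1, Hsp90b1 and Mydgf (each 0.10), and Irf8 to Rilpl1 (0.15), Ptk2b (0.16) and Gm2a (0.16). Among the members themselves Irf5 and Irf9 were the closest pair, at 0.15, and Irf1 and Irf3 the most distant, at 2.14.

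The genes that carry the signal to IRFs moved with LPS in either direction. Of 18 tested kinases, adaptors and scaffolds, 12 rose and 6 fell without serine and 12 rose and 6 fell with serine (medians 0.86 and 0.73). Over all tested genes 27.1% rose and 29.7% fell without serine, and 27.6% rose and 28.2% fell with serine. With total-count scaling 7 rose and 6 fell in each medium, beside 75% and 73.3% of all genes called in either direction. Myd88, the adaptor upstream of IRF5 and IRF7, rose by 2.73 ± 0.14 without serine and 2.64 ± 0.14 with serine, Tank, a scaffold of TBK1, by 2.80 and 3.03, and Azi2, another TBK1 adaptor, by 2.48 and 2.41. Mavs, the adaptor of the RNA sensors, fell, at -1.55 without serine and -1.48 with serine. The IRF3 kinase Tbk1 rose by 1.48 ± 0.13 and 1.37 ± 0.13, and its relative Ikbke by 2.32 and 2.51.

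Of 8 tested DNA-binding or coactivator partners, 7 rose without serine and 6 with serine (medians 3.31 and 3.35), and none fell. Over all tested genes 27.1% rose without serine and 27.6% with serine. Batf, an AP-1 factor that joins IRF4 and IRF8 on DNA, rose by 4.23 ± 0.23 without serine and 5.02 ± 0.23 with serine, and Batf2 by 5.47 ± 0.35 and 5.05 ± 0.32. The IRF9 partner Stat2 rose by 4.46 without serine and by 4.22 with serine, and Spi1, which encodes PU.1, by 1.04 and 1.37. Of 8 genes known to limit IRFs, 2 rose and 3 fell without serine and 2 rose and 4 fell with serine (medians -0.26 and -0.13). Among all tested genes 56.8% were called in either direction without serine and 55.8% with serine. Trim21, a ubiquitin ligase of IRFs, rose by 4.63 ± 0.14 and 4.59 ± 0.14, and Tnfaip3, which encodes A20, by 4.32 ± 0.27 and 4.55 ± 0.27, while the IRF2 corepressor Irf2bp2 fell, at -1.08 and -1.52 without and with serine. With total-count scaling 6 partners rose in each medium, 0 fell without serine and 2 fell with serine. On that scale 2 of the limiting genes rose and 6 fell in each medium. It called 75% and 73.3% of all tested genes in either direction, without and with serine.

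Known target genes were counted by the IRF they are tied to, beside 27.1% and 27.6% of all tested genes that rose without and with serine. All 9 tested genes with interferon-stimulated response elements rose in both media (medians 7.66 and 7.53). Rsad2, an antiviral enzyme, averaged 14384 and 13088 CPM in LPS cells without and with serine, against 32.5 and 28.4 CPM in untreated cells. The chemokine Cxcl10 averaged 5459.6 and 5966 CPM, against 4.26 and 4.23 CPM. Ifnb1 itself was too low to test, at 1.51 and 2.14 CPM in LPS cells without and with serine and 0 counts in all untreated libraries. All 8 genes that need IRF1 rose in both media (medians 4.08 and 3.96), among them the peptide transporter Tap1 by 3.82 ± 0.18 and 3.88 ± 0.18 without and with serine. Nos2, the inducible nitric oxide synthase, averaged 1015 and 1084 CPM in LPS cells without and with serine, against 1 and 2 counts in all 4 untreated libraries. The 3 tested genes that need IRF5 also rose in both media, with Tnf at 6.25 and 6.62, and with Il6 at 94.8 and 144 CPM in LPS cells without and with serine against 0 counts in untreated cells. Of 6 genes tied to IRF8 only Cybb (2.24 and 1.99) and Il18 (2.88 and 2.67) rose, and of 3 tested genes tied to IRF4 only Il4ra did, at 0.82 and 1.0, a call that total-count scaling did not give. Mrc1, the mannose receptor, stood at 0.47 ± 0.31 without serine (adjusted p = 0.198, and 0.0215 with the replicate block) and 0.04 ± 0.31 with serine. With total-count scaling 3 and 4 of the other genes tied to IRF8 were called lower without and with serine. That scale called 75% and 73.3% of all tested genes in either direction.

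No gene of these lists was called by edgeR for serine withdrawal or for the difference of the LPS responses. At an unadjusted p under 0.05 there were 1 of 18 signalling genes, 2 of 8 limiting genes and 2 of 3 genes that need IRF5 in LPS-treated cells (6.14% of all genes), 2 signalling genes and 1 of 8 partners in untreated cells (4.98%), and 1 partner for the difference (2.3%). The genes that need IRF5 were Il6 at -0.61 ± 0.21 and Il12b at -0.75 ± 0.27 (adjusted p = 0.573 each, and 0.0597 and 0.177 with the replicate block).

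The authors' deposited table of LPS with serine lists all 8 members, with Irf4 at a log2 fold change of 1.89 (adjusted p = 0.00336 in the authors' deposited table). The authors' deposited table of LPS without serine lists 7 of them and not Irf4.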

How the data were processed

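RNA was sequenced from 16 macrophage libraries, 4 in each of 4 groups taken from the sample titles. The authors deposited whole-number read counts for each Ensembl gene. The submitters' processing notes name STAR, HTSeq, SAMtools, edgeR, Trimmomatic 0.33 and mm10 without their roles. Total counts ran from 2871477 to 10043362 per library. Another 24 per-sample columns were not used. Symbols came from the reference tables (42462 of 43430 IDs matched). The members and gene lists were chosen with earlier results of these data known.

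Tests used edgeR 4.0.16 in R 4.3.3, on the 11004 genes that its default filter kept. Libraries were scaled by TMM, and 1 robust quasi-likelihood fit of group means held all 16 libraries. Two-sided p-values were adjusted (Benjamini-Hochberg) over all 11004, with a threshold of 0.05. The steps were tested on simulated data. The genes named beside the 8 members are the 3 closest profiles of each and, in each list, the 2 with the smallest p for LPS and any whose role a sentence needs. Log2 CPM used a prior count of 2.

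Same-numbered libraries deviated together across genes in all 4 comparisons of 2 groups (correlations 0.125 to 0.660, all above 0.1). Libraries of unlike number were not compared in this way, and the numbers were taken to pair the samples. The reported fit of group means does not use this pairing, while the replicate block does. The replicate block gave the same member calls. None of 120 library pairs was a copy. The log2 fold changes and adjusted p-values of the authors' deposited tables were copied for Irf4 only, and their scaling is not stated. FPKM was computed from the counts with exon lengths of GENCODE M21, since the length in the authors' deposited tables exceeds the genomic span of 4 members. Promoters are RefSeq sequences, matched for all 8 members. Alternatives were RLE and total-count scaling, no filter, DESeq2 1.42.0, a likelihood ratio test, the replicate block, only the 2 groups compared, and leaving out libraries.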

Additional observations from a re-analysis of the deposited data

Results flagged for a closer look

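In 4 groups of a gene, of 32 examined, the highest or lowest library lay farther from the rest than Dixon's test allows, where chance gives about 5%. Irf7 was highest in replicate 1 of both untreated groups, at 455.7 CPM without serine and 475.1 CPM with serine. Irf7 was lowest in replicate 2 of the LPS cells without serine, at 670.4 CPM. Irf8 was lowest in replicate 2 of the untreated cells with serine, at 247.3 CPM. Irf2 was higher without serine in all 4 LPS pairs and lower in all 4 untreated pairs, a difference of 0.40 (log2) that did not pass the test of the difference itself (edgeR adjusted p = 0.95). Without replicate 4 of the untreated cells lacking serine, the shallowest library, this difference was 0.23, and 0.17 with the replicate block as well.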

How the results depend on the processing

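The 5 LPS calls of Irf1, Irf2, Irf5, Irf7 and Irf9 kept their direction and passed the threshold under all 25 alternatives in each medium. No member was called for serine withdrawal or the difference of the LPS responses under any. Irf4 without the filter ran from 1.71 to 2.96 without serine and from 1.55 to 2.46 with serine when 1 library at a time was left out, an alternative chosen after seeing the data, and lost its call in 1 and 4 of these 16 fits. Over the 5 comparisons 822 of 868 alternative member values kept direction and side, 2 were newly called (Irf3 with total-count scaling) and 44 changed sign, none of them called by the reported test and 1 called after the change (Irf8 with total-count scaling).

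With total-count scaling Irf8 stood at -0.33 and -0.50 for LPS without and with serine, and Irf3 at -0.0026 for withdrawal in untreated cells; 8250 and 8071 genes were called for LPS without and with serine, 20.4% and 20.6% of them higher, against 47.7% and 49.5% of 6250 and 6139 with TMM. Without replicate 1 of all groups, an alternative chosen after seeing the data like the next, Irf7 stood at 0.001 for withdrawal in untreated cells and Irf9 at -0.0806 for the difference. In the fit with the replicate block that drops the shallowest library (replicate 4, untreated, no serine), withdrawal in untreated cells gave -0.0075 for Irf1, -0.12 for Irf3, 0.10 for Irf7 and 0.0505 for Irf8, and the difference gave 0.15 for Irf1, 0.0565 for Irf3 and -0.0262 for Irf8.

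Leaving out 1 library at a time, sign changes fell within these ranges. For LPS with serine Irf8 ran from -0.0329 (without replicate 3 of the LPS cells with serine) to 0.27. For withdrawal in LPS-treated cells Irf1 ran from -0.0438 to 0.37, Irf2 from -0.0423 to 0.19, Irf3 from -0.14 to 0.0083, Irf7 from -0.16 to 0.0579 and Irf8 from -0.17 to 0.19. For withdrawal in untreated cells Irf3 ran from -0.0806 to 0.18, Irf7 from -1.16 to 1.14 and Irf8 from -0.17 to 0.0023. For the difference Irf1 ran from -0.27 to 0.13, Irf3 from -0.24 to 0.0228, Irf7 from -1.20 to 1.11, Irf8 from -0.0603 to 0.30 and Irf9 from -0.12 to 0.0855. For Irf2 the difference was 0.23 and withdrawal in untreated cells stood at -0.16 without the shallowest library. The widest ranges, of Irf7, come from leaving out replicate 1 of an untreated group.

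Counts over all genes moved more. Withdrawal in LPS-treated cells called 6 genes, against 0 with total-count scaling or without replicate 1 of all groups, 110 by DESeq2, 98 with the replicate block, 69 by the likelihood ratio test, 35 with only the 2 groups, 922 with the block and without the shallowest library, and 0 to 156 with 1 library left out (156 without the shallowest). Withdrawal in untreated cells called 0 genes, against 2 without the filter, 13 by DESeq2, 9 with the block, 11 by the likelihood ratio test and 79 with the block and without the shallowest library. The difference called 0 genes, against 1 by DESeq2, 1 by the likelihood ratio test and 8 with the block and without the shallowest library. The cause was not tested. The replicate block changed no call of a member. Irf4 had at most 24 counts in a library.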
